A study of Mus musculus with 24 samples.

Results

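Among the merged Foxa peak regions of mouse induced hepatocyte-like cells, 351 of 16880 (2.08%) held a Foxa2 peak and a Foxa3 peak and no Foxa1 peak. These regions are sites that the lists of the Foxa2 line and of the Foxa3 line have in common and that no list of the Foxa1 line holds. The members were chosen on the peak lists alone: peaks of the 9 Foxa lists of these cells were merged wherever they shared at least 1 bp, and a region was taken when at least 1 list of the Foxa2 line and at least 1 list of the Foxa3 line held a peak in it and none of the 3 lists of the Foxa1 line did. Presence in these lists is therefore the way the regions were picked and no finding about them, and score, width and number of lists come from the same peaks and are given as descriptions without a test.

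The cells were fibroblasts of C57BL/6 mouse embryos at day 13.5, turned into hepatocyte-like cells (iHep) by infection with Hnf4alpha and 1 Foxa gene. Line 4a1 received Foxa1, line 4a2 Foxa2 and line 4a3 Foxa3, so that all 3 lines shared Hnf4alpha. Chromatin immunoprecipitation and sequencing (ChIP-seq) used an antibody against the line's own Foxa protein, with 3 libraries a line, 2 carrying the tag EGS in their titles (a tag the labels do not spell out) and 1 marked non-EGS. A Flag antibody was used in 1 library of line 4a2 and 1 of line 4a3, and hepatocytes isolated from the livers of 10-week-old adult mice gave 1 library for each of Foxa1, Foxa2 and Foxa3. Line, introduced gene and antibody change together, so a difference between Foxa1, Foxa2 and Foxa3 sites cannot be told apart from a difference between antibodies or lines. The labels do not say whether libraries of a line came from separate infections, nor which protein carries the Flag tag. Peak lists hold no expression values, so the identity of the cells was not checked against marker genes. Positions are in the mouse build mm9, for which no annotation was used here, so regions are named by position and not by gene.

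The Foxa proteins form a small family of forkhead DNA-binding factors whose binding domains are closely alike. They are known as pioneer factors, which can bind their sites in closed chromatin and open it for other factors, and in the liver they act from the first specification of the tissue through to adult metabolism. Hnf4alpha is a nuclear receptor that binds many liver enhancers beside Foxa proteins.

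The lists behind the regions were very unequal in length. The Foxa2 non-EGS list held 11408 peaks, against 957 and 1040 in the EGS lists of the same line (replicates 1 and 2). The Foxa3 non-EGS list held 4317 peaks, EGS replicate 1 held 1246 and EGS replicate 3 held 46. The Foxa1 lists, whose absence defines the regions, held 3431 peaks (non-EGS), 940 and 542 (EGS). Read depth is unknown from these files, so the length of a list stands in for how much each library could contribute.

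Regions with Foxa2 and Foxa3 peaks numbered 769, and 351 of them (45.6%) had no Foxa1 peak while 418 had one. The 351 were 7.22% of the 4859 regions with a Foxa3 peak and 3.01% of the 11670 regions with a Foxa2 peak. For scale, 2395 regions held Foxa1 and Foxa2 but no Foxa3, 8506 held Foxa2 alone, 4070 Foxa3 alone and 20 Foxa1 and Foxa3 without Foxa2.

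Most members came from the pair of long lists. The Foxa2 non-EGS list held a peak in 324 of the 351 regions (92.3%), Foxa2 EGS replicate 2 in 115 (32.8%) and Foxa2 EGS replicate 1 in 67 (19.1%). The Foxa3 non-EGS list held a peak in 301 (85.8%), Foxa3 EGS replicate 1 in 90 (25.6%) and Foxa3 EGS replicate 3, the shortest list, in 1. Both non-EGS lists held 279 of the regions (79.5%), and for 174 (49.6%) they were the only lists with a peak. The combination next in size added Foxa2 EGS replicate 2 to that pair, with 35 regions, and 25 regions paired the Foxa2 non-EGS list with Foxa3 EGS replicate 1.

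Repeat evidence within a line was uneven between Foxa2 and Foxa3. Members with a peak in 2 or more Foxa2 lists numbered 117 (33.3%), and those with a peak in 2 or more Foxa3 lists numbered 40 (11.4%). Both held for 23 regions (6.55%). By number of lists, 217 regions (61.8%) sat in 2 lists, the fewest the definition allows, 83 in 3, 40 in 4 and 11 in 5, and 0 were in all 6. An EGS list of each line held 53 regions (15.1%), and 5 regions had no non-EGS peak at all.

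**Figure D1:**
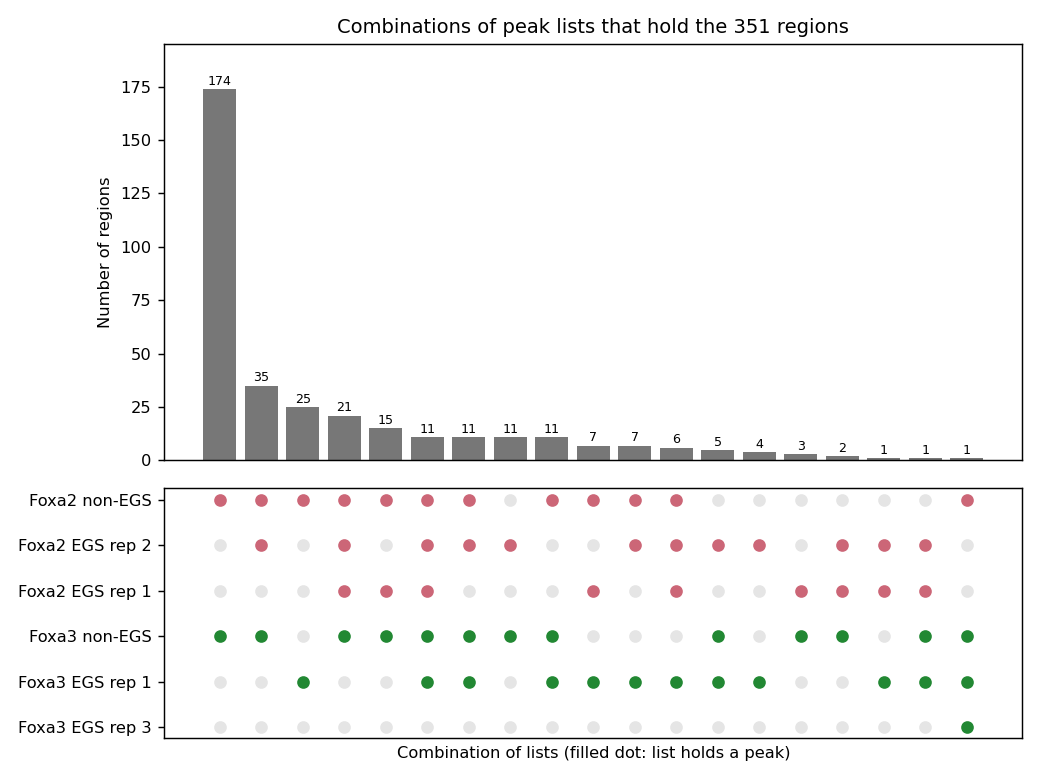
Number of regions (vertical axis) for each combination of the 6 Foxa2 and Foxa3 peak lists that holds them, with filled dots below each bar marking the lists with a peak (red, Foxa2 lists of line 4a2; green, Foxa3 lists of line 4a3). The first bar, the pair of non-EGS lists alone, accounts for 174 of the 351 regions.

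The strength of a peak was read as its score percentile within its own list, where 100 is the highest score, because the authors' scores are not on a scale that can be compared between lists. Regions in more lists also ranked higher on average. The median of the mean percentile was 45.2 for regions in 2 lists, 57.0 in 3, 60.4 in 4 and 72.7 in 5.

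Rank in the Foxa2 non-EGS list differed most between the regions without Foxa1 and those with it, and the 4 other lists long enough to compare differed less. In the Foxa2 non-EGS list the members had a median percentile of 53.5 (quartiles 30.6 and 71.5, n = 324 regions). The regions that also held Foxa1 had a median of 90.8 in that list (quartiles 75.2 and 97.0, n = 406). The members thus lay in the middle of the Foxa2 list, and the lower quartile of the regions with Foxa1 lay above the upper quartile of the members. In the Foxa3 non-EGS list the medians were 48.8 for the members (n = 301) and 57.8 for the regions with Foxa1 (n = 315), with largely overlapping quartiles. The EGS lists showed small differences in both directions: 64.4 against 68.1 in Foxa2 EGS replicate 2, 73.3 against 63.1 in Foxa2 EGS replicate 1, and 46.3 against 52.0 in Foxa3 EGS replicate 1, members first.

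The same contrast appears when the regions with Foxa2 and Foxa3 are put in 4 equal groups by Foxa2 non-EGS percentile. From the lowest to the highest group, 79.2%, 62.1%, 29.7% and 6.56% had no Foxa1 peak (145 of 183, 113 of 182, 54 of 182 and 12 of 183 regions). The exact Clopper-Pearson 95% interval was 72.6% to 84.9% in the lowest group and 3.43% to 11.2% in the highest. These intervals, like all others here, cover counting error only. Grouped by Foxa3 non-EGS percentile instead, the shares were 59.1%, 50%, 40.9% and 45.5%, and by any of the 3 longer EGS lists they followed no steady order. From the lowest to the highest group the shares were 29.1%, 41.9%, 25.6% and 37.2% by Foxa2 EGS replicate 2, and 19.4%, 19.4%, 31.9% and 22.2% by Foxa2 EGS replicate 1. The fall of the share with Foxa2 rank was thus seen in the non-EGS list and not in the EGS lists of the same line.

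**Figure D2:**
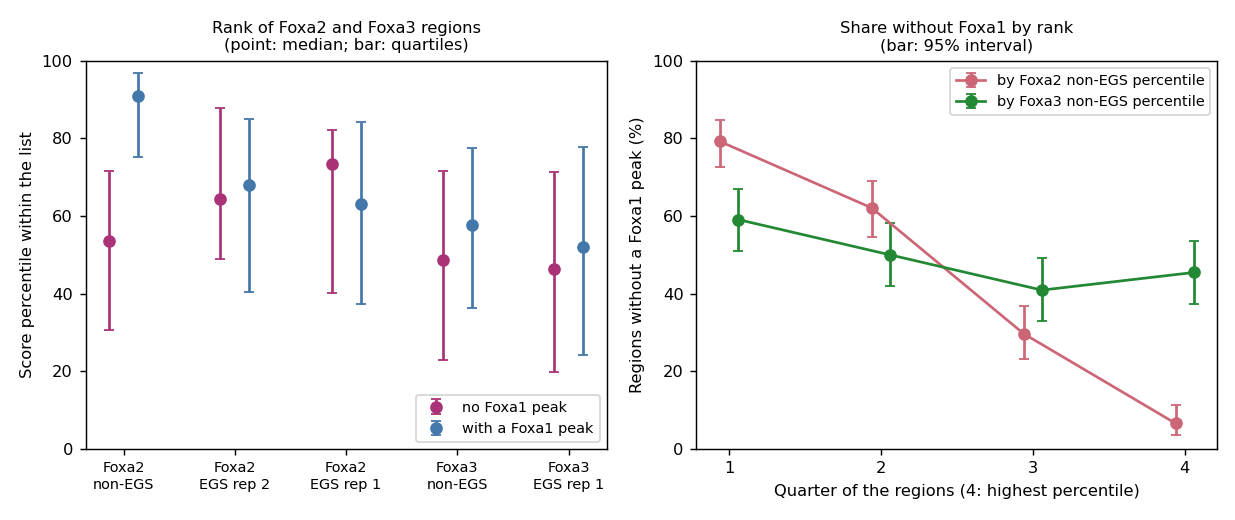
Left, score percentile within each list for regions with Foxa2 and Foxa3 peaks, split by whether they also hold a Foxa1 peak (points, medians; bars, quartiles). Right, share of those regions without a Foxa1 peak in 4 equal groups by rank (bars, exact 95% intervals), falling from 79.2% to 6.56% by Foxa2 non-EGS rank and lying between 40.9% and 59.1% by Foxa3 non-EGS rank.

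Seen from the Foxa2 non-EGS list itself, members were spread over all strengths. With the list cut into 10 score groups, they took 1.93% of the peaks of the highest group, 2.01% of the lowest and at most 4.13%, in group 7 from the bottom. In the Foxa3 non-EGS list they took between 5.63% and 9.43% of each group. Foxa2 and Foxa3 strength did not move together across the 279 members in both non-EGS lists: Spearman's rho was 0.047 across regions, against 0.056 across the 311 regions with Foxa1 in both lists. These regions share their libraries and many Foxa3 scores are tied, so the value is a description. Foxa2 was above the middle of its list and Foxa3 below in 88 members, the reverse held in 51, both were above in 68 and both below in 72. A single member was in the highest of the 10 groups in both lists, against 16 of the regions with Foxa1.

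**Figure D3:**
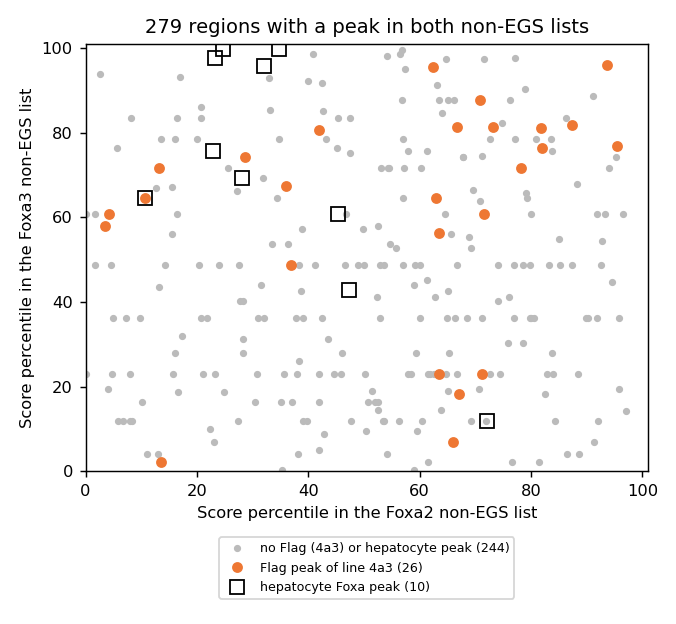
Score percentile in the Foxa2 non-EGS list (horizontal) against that in the Foxa3 non-EGS list (vertical) for the 279 regions with a peak in both; horizontal rows of points are tied Foxa3 scores. Orange points are the 26 with a Flag peak of line 4a3 and open squares the 10 with a hepatocyte Foxa peak. Of the 8 squares with a hepatocyte Foxa3 peak, 6 have the higher percentile in the Foxa3 list.

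The width of the members ran from 124 to 8465 bp with a median of 512 bp (quartiles 424 and 624), against a median of 413 bp over all merged regions. Regions with Foxa1 and Foxa2 had a median of 550 bp and regions with all 3 factors 608 bp. Regions of the Foxa2 line alone had a median of 431 bp and regions of the Foxa3 line alone 174 bp, since the Foxa2 non-EGS peaks are wide (median 458 bp) and the Foxa3 non-EGS peaks narrow (median 180 bp). The members' own peaks had about the width of their lists, with medians of 477 bp in the Foxa2 and 192 bp in the Foxa3 non-EGS list. The 351 regions held 943 peaks: 203 regions held 2 peaks, 19 held 5 or more, and the most was 14. Widths above 1 kb were seen in 11 regions.

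Foxa2 and Foxa3 peaks in a member usually lay on each other and did not merely touch. The longest Foxa2 and Foxa3 overlap in a region had a median of 147 bp, and in 240 regions 1 peak lay entirely inside the other. The overlap reached 50% of the narrower peak in 314 regions (89.5%), compared with 98.6% of the 418 regions with Foxa1. Distances between peak centres had a median of 66.5 bp, against 42.5 bp with Foxa1, and centres were within 100 bp in 213 members (60.7%) and 76.8% of the regions with Foxa1. The Foxa2 non-EGS peaks had a median width of 477 bp in members and 598 bp in the regions with Foxa1, and overlap was not adjusted for width. At the edge of the definition, 14 members overlapped by less than 50 bp and the smallest overlap was 3 bp.

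A Foxa1 peak was seldom just beside a member. The closest lay 1233 bp away and the median distance to the nearest Foxa1 peak was 138943 bp. That median was close to the 143135 bp of regions with Foxa2 alone and the 137061 bp of those with Foxa3 alone. No member had a Foxa1 peak within 1 kb, a count of 0 of 351 that allows a share of up to 1.05%, while 1.29% of the regions with Foxa2 alone and 2.04% of those with Foxa3 alone had one. Within 10 kb there were 36 members (10.3%), close to the 8.75% of Foxa2-only and 11.7% of Foxa3-only regions. On the other side of the boundary, the regions with all 3 factors overlapped Foxa1 peaks by a median of 406.5 bp, and the smallest overlap was 43 bp. In 178 of those 418 regions (42.6%) the Foxa1 peak came from 1 list, and in 36 its best percentile was 20 or less.

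Absence of a Foxa1 peak was then examined in lists that the choice had not used. Applying the same definition to the 3 non-EGS lists alone gave 372 regions, which were looked up in the 6 EGS lists. A Foxa1 EGS peak was present in 93 of them (25%, interval 20.7% to 29.7%), against 6.23% of all 16052 merged non-EGS regions. That background includes regions with a Foxa1 non-EGS peak. Non-EGS regions of Foxa2 alone had a Foxa1 EGS peak in 2.67%, and those of Foxa3 alone in 0.218%. EGS replicate 1 of Foxa1 held 84 of the 372 (22.6%) and replicate 2 held 27 (7.26%). The title of Foxa1 replicate 1 ends in the same number as those of the Foxa2 EGS libraries, and that of Foxa1 replicate 2 in another. The labels do not explain these numbers, and their part in the overlap was not tested. The Foxa1 EGS peaks in the 372 were of ordinary strength in their lists, with a median percentile of 64.5 in replicate 1 and 40.4 in replicate 2. Absence from the longest Foxa1 list was thus compatible with a peak in a shorter Foxa1 list for these 93 regions.

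The Foxa2 and Foxa3 calls were looked up in the same way. A Foxa2 EGS peak was found in 172 of the 372 (46.2%, background 8.14%) and a Foxa3 EGS peak in 58 (15.6%, background 4.36%). EGS peaks of both factors were found in 46 (12.4%). The 372 held non-EGS peaks of both factors by choice, while the backgrounds include regions without them. Non-EGS regions of Foxa2 alone had a Foxa2 EGS peak in 6.47%, and those of Foxa3 alone had a Foxa3 EGS peak in 11.6%. Regions that held all 3 factors in the non-EGS lists, 218 in number, had EGS peaks more often for each factor, with 69.3% for Foxa1, 64.7% for Foxa2 and 29.4% for Foxa3. Regions with Foxa1 and Foxa2 and no Foxa3 had them in 21.9%, 18.3% and 3.62%. For Foxa1 the interval of the regions without a Foxa1 non-EGS peak (20.7% to 29.7%) overlapped that of the 2237 regions with Foxa1 and Foxa2 (20.2% to 23.6%).

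Within the 372, Foxa1 EGS peaks were more frequent at higher Foxa2 non-EGS rank. In 4 groups of 93 by Foxa2 non-EGS percentile, the share with a Foxa1 EGS peak was 10.8%, 14%, 24.7% and 50.5%, lowest group first. The Foxa2 EGS share went 26.9%, 32.3%, 58.1% and 67.7%, and the Foxa3 EGS share stayed between 14% and 18.3%. In the highest group the interval for Foxa1 was 40.0% to 61.1%, against 5.28% to 18.9% in the lowest.

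**Figure D4:**
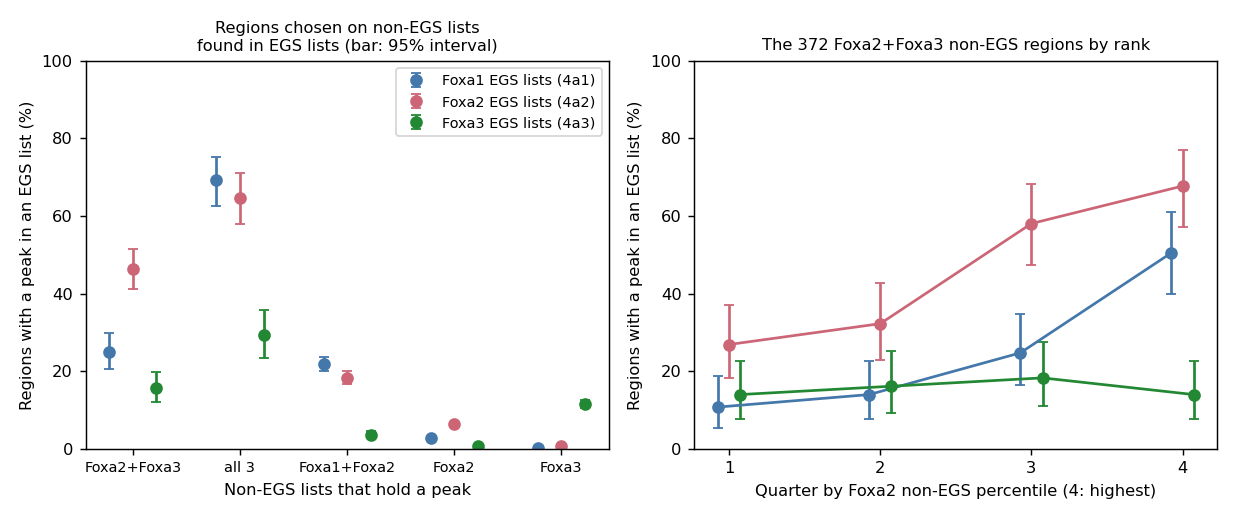
Left, share of regions chosen on the non-EGS lists that hold a peak in any EGS list of Foxa1, Foxa2 or Foxa3, by the non-EGS lists with a peak (bars, exact 95% intervals). Right, the same shares for the 372 regions with Foxa2 and Foxa3 and no Foxa1, in 4 groups by Foxa2 rank, where the Foxa1 share goes from 10.8% to 50.5% and the Foxa3 share stays between 14% and 18.3%.

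The reverse choice gave fewer regions. The EGS lists alone gave 60 regions with Foxa2 and Foxa3 and no Foxa1. The Foxa1 non-EGS list held a peak in 10 of them (16.7%, interval 8.29% to 28.5%). Over all 3241 merged EGS regions, which include those with a Foxa1 EGS peak, the share was 28.6%. It was 21.7% for EGS regions of Foxa2 alone and 2.65% for those of Foxa3 alone. The Foxa2 non-EGS list held 49 (81.7%, background 55.9%) and the Foxa3 non-EGS list 29 (48.3%, background 27.9%). All 60 held EGS peaks of both factors by choice, while the background includes regions without them. EGS regions of Foxa2 alone were in the Foxa2 non-EGS list in 76.5%, and those of Foxa3 alone in the Foxa3 non-EGS list in 51.4%. The intervals of the 60 regions, 69.6% to 90.5% for Foxa2 and 35.2% to 61.6% for Foxa3, held these shares. The 130 EGS regions with all 3 factors were held by the Foxa1 non-EGS list in 68.5%.

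The member with the strongest repeat evidence was chr13:99584797-99585777 (mm9, 981 bp), in 5 lists. Its score percentiles were 98.2 and 99.2 in Foxa2 EGS replicates 1 and 2, 93.6 in the Foxa2 non-EGS list, 67.5 in Foxa3 EGS replicate 1 and 96.0 in the Foxa3 non-EGS list. It thus ranked above percentile 90 in 4 of its 5 lists. It held a Flag peak of line 4a3 at percentile 85.2, and the nearest Foxa1 peak was 280058 bp away. The region next in order, chr2:179711503-179712083 (581 bp), had percentiles of 93.7, 94.7 and 70.9 in the Foxa2 lists and 83.6 and 87.7 in the Foxa3 lists, in the same sequence. It too held a Flag peak, at percentile 88.6, but a Foxa1 peak lay 6146 bp off. At chr3:143864896-143865556 (661 bp) the values were 82.1, 87.7 and 64.7 for Foxa2 and 87.8 and 97.3 for Foxa3, with no Flag peak.

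Other members in 5 lists were less even. The region chr4:33334714-33335210 had percentiles of 91.4, 87.7 and 57.4 for Foxa2 but 44.8 and 95.1 for Foxa3, and a Foxa1 peak at 8973 bp. At chr12:32184648-32185055 Foxa2 ranged from 19.9 in the non-EGS list to 87.0 in EGS replicate 1, and Foxa3 from 1.73 to 78.5. Being in 5 lists thus did not mean a high score in each. None of the 10 highest-ordered members held a hepatocyte peak, and 4 held a Flag peak of line 4a3, the other 2 being chr16:4559553-4560105 and chr5:93635280-93636119. Of all merged regions in 4 or more lists, 6.52% held a hepatocyte peak and 38.4% a Flag peak of line 4a3. With 10 regions, neither count sets these members apart.

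The Flag library of line 4a3 was not used to choose the regions, although it comes from a line that was. Flag peaks were present in 45 of the 351 members (12.8%, interval 9.51% to 16.8%), against 3.47% of all merged regions. Regions with all 3 factors held them in 44.5%, regions with Foxa1 and Foxa2 in 7.10%, Foxa2-only regions in 1.29% and Foxa3-only regions in 1.2%. The Flag library of line 4a2 had 21 peaks in all and overlapped 2 members (0.570%, background 0.077%), a length at which a missing peak says little.

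At an equal number of lists the line combinations lay closer together. Among regions in 2 lists, Flag peaks of line 4a3 were in 6.91% of the members (15 of 217), 2.71% of Foxa1 and Foxa2 regions, 6.70% of Foxa2-only and 2.88% of Foxa3-only regions, and in 3.76% of all merged regions in 2 lists. In 3 lists the shares were 18.1% of the members, 12.9% of all regions, 18.9% of the regions with all 3 factors and 10.3% of the Foxa1 and Foxa2 regions. In 4 or more lists they were 29.4% of the members, 38.4% of all regions, 50% of the regions with all 3 factors and 27.0% of the Foxa1 and Foxa2 regions. The interval for the members, 17.5% to 43.8%, held the share of all regions, which the members did not exceed in this group. The intervals of members and regions with all 3 factors overlapped in the group with 3 lists and did not in the group with 4 or more, where regions with all 3 factors can reach more lists than members can.

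Flag peaks also went with particular lists. Members with a peak in Foxa3 EGS replicate 1 held one in 27 of 90 cases (30%, interval 20.8% to 40.6%), and the other members in 18 of 261 (6.90%, interval 4.14% to 10.7%). That list and the Flag library of line 4a3 carry the same tag, R156, in their titles, which the labels do not explain, and its part in the overlap was not tested. Members with a Foxa2 EGS peak, from another line, held a Flag peak in 31 of 140 (22.1%) and the others in 14 of 211 (6.64%). With both kinds of EGS peak the share was 35.8% (19 of 53), and with neither 3.45% (6 of 174). These splits did not hold the number of lists equal. Among members in 2 lists, the Foxa3 non-EGS list paired with Foxa2 EGS replicate 2 gave 0 of 11 and with replicate 1 gave 0 of 3. Foxa3 EGS replicate 1 gave 7 of 25 with the Foxa2 non-EGS list and 2 of 4 with Foxa2 EGS replicate 2. The pair of non-EGS lists gave the 6 of 174.

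In their own list the 45 Flag peaks had a median percentile of 63.1 (quartiles 43.1 and 77.9) and covered most of its range. The Flag peak at chr6:34812912-34813289 was at percentile 94.8 and that at chr3:51908644-51909244 at 79.7. At chr1:140515797-140516414, a region in 5 lists, it was at 4.64. The Foxa percentiles of that region were 22.9, 94.7 and 4.16 in Foxa2 EGS replicates 1 and 2 and the Foxa2 non-EGS list, and 0.361 and 60.9 in Foxa3 EGS replicate 1 and the Foxa3 non-EGS list, so that its lists of both factors disagreed on its rank.

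Hepatocyte Foxa peaks were not used to choose the regions. Of the 351, 13 (3.70%, interval 1.99% to 6.25%) overlapped a hepatocyte Foxa peak, against 2.42% of all merged regions, which lies within the interval. Foxa3 peaks accounted for 9 (2.56%, background 1.61%), Foxa2 for 3 (0.855%, background 0.752%) and Foxa1 for 1 (0.285%, background 0.616%). The hepatocyte lists are short, with 1091, 244 and 166 peaks, so a missing peak there says little. Among the regions with all 3 factors the share was 8.85%, made up mainly of hepatocyte Foxa2 peaks (7.89%), and among Foxa3-only regions it was 4.72%, nearly all Foxa3 (4.69%). The members' hepatocyte Foxa2 share of 0.855% (interval 0.177% to 2.48%) lay below the 7.89% (interval 5.5% to 10.9%) of the regions with all 3 factors. At an equal number of lists these Foxa2 intervals overlapped: 1.2% (0.0305% to 6.53%) of the members against 4.05% (0.844% to 11.4%) in 3 lists, and 3.92% (0.478% to 13.5%) against 8.72% (5.96% to 12.2%) in 4 or more. Hepatocyte Foxa3 peaks at an equal number of lists were rarer in members than in Foxa3-only regions. They were in 1.84% of the members against 19.6% in 2 lists (4 of 217 and 75 of 382). In 3 lists they were in 4.82% against 85.7% (4 of 83 and 18 of 21). The intervals did not overlap in either group. Foxa3-only regions have only Foxa3 lists, so the number of Foxa3 lists was not held equal.

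The members with a hepatocyte Foxa3 peak leaned to Foxa3 in the non-EGS iHep lists as well. Of these 9, 8 were in both non-EGS lists, and in 6 of the 8 the Foxa3 percentile was the higher. Their median percentile was 30.1 in the Foxa2 and 94.0 in the Foxa3 non-EGS list. For the 338 members without a hepatocyte peak the medians were 54.4 and 48.8, and Foxa3 was the higher in 43.5% of the 269 in both lists. Of the 3 members with a hepatocyte Foxa2 peak, 2 were in both non-EGS lists, and in these 2 the Foxa3 percentile was also the higher. Their medians were 28.0 in the Foxa2 and 64.6 in the Foxa3 non-EGS list. In the non-EGS lists a higher Foxa3 percentile was thus also seen in these 2. The EGS lists went the other way, since all 3 held a peak in both Foxa2 EGS lists and no Foxa3 EGS peak. With 9 and 3 regions these values are descriptions and no more.

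The 2 widest members differed in their number of peaks. At chr3:96361534-96366875 (5342 bp) 14 peaks were merged, 10 of them from Foxa3 EGS replicate 1. Its Foxa3 percentile was 93.4 in that list, 9.78 in EGS replicate 3 and 99.9 in the non-EGS list, its Foxa2 non-EGS percentile was 34.7, and the hepatocyte Foxa3 percentile was 88.5. It was the one member in 3 Foxa3 lists. The widest member of all, chr10:21713264-21721728 (8465 bp), was made of only 3 peaks. Like the first, it combined high Foxa3 percentiles (95.9 in EGS replicate 1 and 99.6 non-EGS) with a middling Foxa2 one (56.8). It had no hepatocyte or Flag peak. In both, the Foxa2 lists contributed a single peak.

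Compact regions with hepatocyte Foxa3 peaks included chr15:38230028-38230806 (779 bp), at Foxa2 percentiles of 71.2 (EGS replicate 2) and 32.0 (non-EGS), a Foxa3 non-EGS percentile of 95.8 and a hepatocyte percentile of 58.9. At chr15:96529975-96530353 (379 bp) the Foxa3 non-EGS percentile was 94.0 and a Foxa1 peak lay 1752 bp away. Hepatocyte Foxa2 peaks fell on chr9:26837695-26838094, chr6:34812912-34813289 and chr14:8912853-8913042, all with Foxa2 peaks in both EGS replicates, at percentiles of 73.3 and 78.9, 73.3 and 87.7, and 82.1 and 60.3. Of these, the region on chromosome 6 was weak in the Foxa2 non-EGS list (10.7) and the one on chromosome 14 had no peak there. The member with a hepatocyte Foxa1 peak, chr16:11144085-11144248, was singled out after its values were seen. It was in 2 EGS lists, at percentile 99.4 for Foxa2 and 96.1 for Foxa3, held peaks in both Flag lists, and its hepatocyte Foxa1 peak had the highest score of that list.

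**Figure D5:**
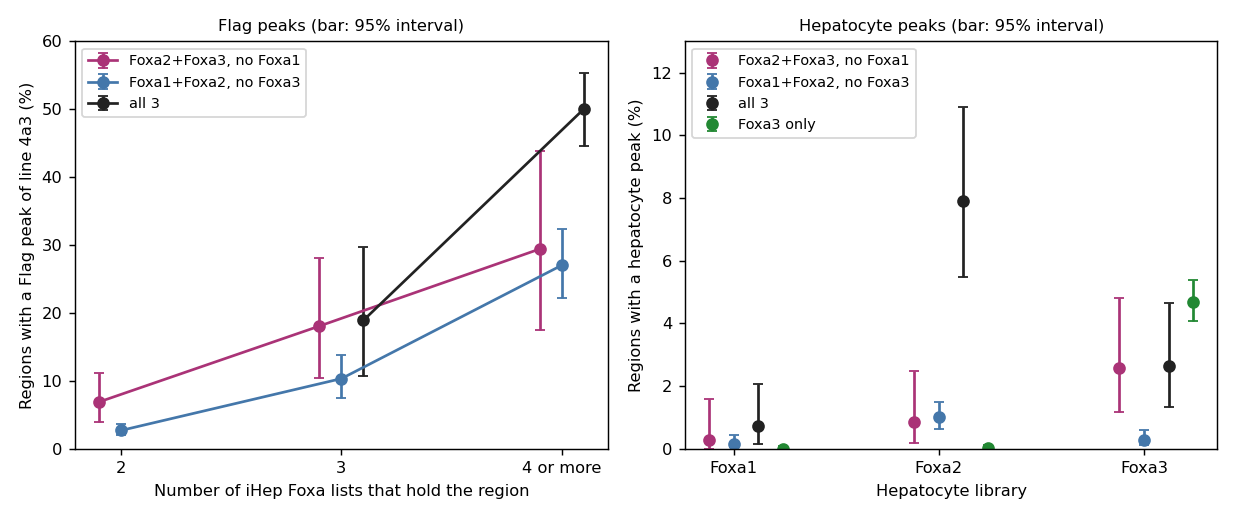
Left, share of regions with a Flag peak of line 4a3 by the number of iHep Foxa lists that hold the region, for members and for 2 other line combinations. Right, share with a peak in each hepatocyte library, with Foxa3-only regions added; bars are exact 95% intervals. The hepatocyte Foxa2 share is 7.89% in the regions with all 3 factors and 0.855% in the members, without regard to the number of lists; at an equal number the intervals overlap.

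Members were spread over the genome, and most had no other member within 5 kb. All 19 autosomes held some, from 8 on chromosome 18 to 31 on chromosome 6, or between 1.36% and 3.41% of a chromosome's merged regions. Chromosome X held none of its 311 regions, of which 2 had both Foxa2 and Foxa3, and the exact limit for 0 of 311 is 1.18%. The median distance to another member was 1.46 Mb, and 20 members (5.70%) had one within 5 kb. No background was made for the spacing between members, so whether they cluster was not tested. The closest pair was chr6:72166490-72166869 and chr6:72167110-72167490, 240 bp apart.

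Where a neighbour lay within 1 kb of a member, the nearest was mostly a Foxa3-only region. Another merged region was within 1 kb of 118 of them (33.6%), and in 102 cases the nearest was a Foxa3-only region, in 11 a Foxa2-only region, in 4 another member and in 1 a region with all 3 factors. Regions with Foxa1 and without Foxa3, or with Foxa1 and Foxa3 only, were the nearest in 0 cases. No Foxa1 peak lay within 1 kb of a member, which left little room for such neighbours. The counts within 1 kb were not made for other regions, so they have no background share. Within 5 kb, 180 members (51.3%) had a neighbour, compared with 66.4% of Foxa3-only and 19.6% of Foxa2-only regions. The share was 32.3% over all merged regions and 35.9% over regions with all 3 factors. Flag peaks of line 4a3 were in 13.3% of the 180 and 12.3% of the 171 members without such a neighbour. Hepatocyte peaks were in 5.56% and 1.75%, with overlapping intervals (2.70% to 9.98% and 0.363% to 5.04%).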

How the data were processed

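The files were 14 peak lists in BED format, 1 for each immunoprecipitated library; the 10 input libraries of the 24 samples had no list of their own to use here. The unit is the score that the authors deposited for each peak, its scale is unknown, and the list of the Flag library of line 4a3 starts at 50 where the others start near 5. BWA 0.6.2, MACS2 2.1.0, bedtools 2.16.2 and build mm9 are named in the submitters' processing notes, with no role. The peak calling threshold was not given in the sources used here.

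Peaks were merged where they shared at least 1 bp, and each score was turned into a percentile within its list (ties shared the mean rank, and a region took its best peak). Shares have exact Clopper-Pearson 95% intervals. No test across libraries was made, since each list is a single library and the members were chosen on the lists. The members, lists of comparison and alternatives were chosen with earlier results of these data known. Named regions were the 10 members in most lists (ties by mean percentile), the next 6 with a hepatocyte peak, the next 6 with a Flag peak of line 4a3 and the 2 widest; not all are printed. The merging and overlap code was tested on simulated data. Read depth is unknown, so the number of peaks limits the precision. Python 3.11.15, numpy 2.4.6, pandas 2.3.3, scipy 1.17.1 and matplotlib 3.10.9 were used.

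Alternatives were a 50% overlap, the top 50% or 300 peaks of each list, merging within 1 kb, a 500 bp margin around Foxa1 peaks, regions isolated by 5 kb, EGS or non-EGS lists alone, and each list left out in turn.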

Additional observations from a re-analysis of the deposited data

How the results depend on the processing

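The count of 351 regions rests on the 2 long non-EGS lists and on the length of the lists. It was 152 with the top-scoring 50% of each list, 20 with the top 300 peaks, 171 with isolated regions and 60 with EGS lists only. With 1 list left out it ran from 86 (without the Foxa3 non-EGS list) to 440 (without the Foxa1 non-EGS list), and without the Foxa2 non-EGS list it was 134. With non-EGS lists only it was 372, of which 279 of the 351 were a part; a 50% overlap gave 317 and kept 315, merging within 1 kb gave 450, and a 500 bp margin around Foxa1 peaks removed none.

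The share with a hepatocyte peak, 3.70%, was 6.67% with peaks within 1 kb merged, 1.75% for isolated regions and 1.67% with EGS lists only, and ran from 2.33% (without the Foxa3 non-EGS list, 2 of 86) to 4.96% (without Foxa1 EGS replicate 1) with 1 list left out. The Flag share of 12.8% was 17.8% with the top 50%, 35.0% with the top 300 and 38.3% with EGS lists only, and ran from 9.97% to 31.4% with 1 list left out (23.1% without the Foxa2 non-EGS list). The share in 3 or more lists, 38.2%, was 46.1% and 45.0% with the top 50% and top 300, and ran from 25.4% to 51.2% with 1 list left out; non-EGS lists alone allow no more than 2 lists. The median width of 512 bp became 574.5 (top 50%), 317.5 (top 300), 672 (1 kb), 179 (EGS only) and 543.5 bp (non-EGS only), and 211.5 to 530.5 bp with 1 list left out. The share of non-EGS regions found again in Foxa2 or Foxa3 EGS lists, 49.5%, was 61.5% with the top 50% and 80.0% with the top 300, the latter over 5 regions. Fewer peaks or lists enter most of these settings by construction; beyond that the cause was not tested. No paired analysis was possible because no result comes from a test.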
